A study of Mus musculus with 10 samples.

Results

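H3.3 KO mouse embryonic stem cells (mESCs) that carry L126A-I130A H3.3, a histone mutant that binds DAXX but is not stably built into nucleosomes, were compared with the H3.3 KO mESCs they derive from. The comparison was chosen by line, 4 of the 10 libraries of the series, and is described across all genes and by gene function. Of 13201 genes tested, 104 (0.788%) were differentially expressed (DE), 80 lower (0.606%) and 24 higher (0.182%) with the mutant. The genes that were lower included X-linked multicopy genes, germ cell genes, 3 *Serpina3* genes and *Grb10*. The largest rises were those of 3 replication-dependent H3 genes, whose reads and those of an H3.3 transgene cannot be told apart in these counts.

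H3.3 is the H3 variant that is made throughout the cell cycle and deposited outside of DNA replication. The chaperone DAXX works with ATRX at heterochromatin, at repeats such as telomeres and at silenced genes. The study that reported these data found that DAXX also represses endogenous retroviruses without need of ATRX. HIRA deposits H3.3 at active genes. A mutant H3.3 that occupies DAXX without entering chromatin therefore lets the chaperone-bound and the nucleosomal histone be asked about separately, and the comparison with H3.3 KO asks whether gene expression changes when only the first is supplied.

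The line labelled H3.3 KO (129 x C57BL/6J) is 1 line, described as a knockout of H3.3, and its *H3f3b* counts do not show the knockout (values in the next paragraph). The L126A-I130A line is the same line transduced with a lentivirus that drives FLAG-HA-tagged mutant H3.3 from an EF1 promoter and selected in puromycin, so it differs from its control by transduction and selection as well as by the histone. Another line, H3.3 KO;WT, carries WT H3.3 in the same vector and was used for values side by side and for a direct test against the mutant. The remaining lines, *Daxx* -/- (129/SvEv) and *Daxx* -/- with a WT *Daxx* transgene, entered the fit to estimate the spread. The labels spell the mutant L126A-L130A. All lines were grown without feeders in 2i with LIF, 2 libraries a line described as biological replicates, and nothing names separate transductions, so the p-values measure the spread between these libraries.

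Libraries held between 15463625 and 21396585 expected counts, and values are given as counts or as CPM, the counts scaled to a common library size after median-of-ratios normalisation, which compare libraries but not genes of different length. The L126A-I130A libraries were farther apart than those of the other H3.3 lines, with 5.10% of genes differing at least 2-fold between them, against 2.14% in H3.3 KO and 0.629% in H3.3 KO;WT. The table holds no row for a transgene. *H3f3a* lay between 2.85 and 10.9 CPM in the 6 H3.3 libraries and between 382 and 494 CPM in the 4 *Daxx* libraries. *H3f3b* was at 509 and 720 CPM in the libraries labelled H3.3 KO, above those of the other lines, and the counts cannot show whether these reads come from a deleted allele. With L126A-I130A H3.3 it was measured at 386 and 324 CPM (log2 fold change -0.79, standard error 0.25, adjusted p from edgeR 0.164). In the line with WT H3.3 its level was 204 and 139 CPM (log2 fold change -1.84, adjusted p = 0.0311).

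One difference between the lines ran along whole chromosomes. Relative to H3.3 KO, the median level of chromosome 11 genes was -0.428 and -0.475 on the log2 scale in the L126A-I130A libraries, and 712 of the 1097 tested genes of this chromosome (64.9%) lay below both KO libraries. For chromosome 16, 204 of 391 genes (52.2%) did, and over all genes tested 3199 of 13201 did. On the other chromosomes apart from Y, the median log2 fold change of the genes lay between -0.021 and 0.136. The shift was present along the length of chromosome 11, with medians between -0.481 and -0.306 in 10 blocks of neighbouring genes. H3.3 KO;WT libraries were also lower on chromosome 11 (-0.306 and -0.382) and on chromosome 16 (-0.282 and -0.298), and on chromosome 6 as well (-0.146 and -0.285). Of the 104 DE genes, 15 are on chromosome 11, of which 14 were lower. When the median of each chromosome was taken as an offset, an alternative added after these medians were seen, 72 genes were DE, 71 of them among the 104, and 3 of the 15 remained so. Outside chromosome 11, *Brdt*, *Cdc42ep1*, *Col18a1*, *Hormad1*, *Ltbp4*, *Pcdhgb2*, *Pdk1*, *Rhobtb1*, *Smc1b* and *Xlr4b*, which are described with their values further on, also lost their call with the offsets (adjusted p between 0.0553 and 0.081). Copy number was not measured, and its part in these results was not tested.

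**Figure D1:**
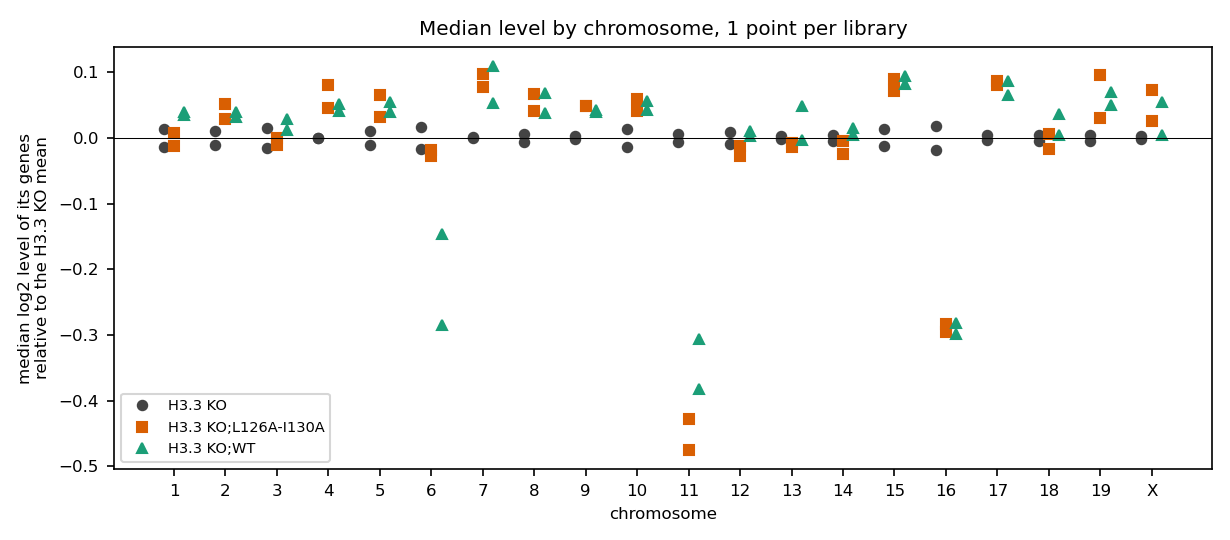
Median log2 level of the genes of each chromosome, with the H3.3 KO mean set to 0 and 1 point per library for H3.3 KO, L126A-I130A and WT H3.3 lines (genes with at least 5 CPM in every library). The L126A-I130A libraries lie at -0.428 and -0.475 on chromosome 11 and at -0.295 and -0.283 on chromosome 16, and both KO libraries lie near 0 throughout.

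The 80 genes that were lower had a median size of change of 2.74 on the log2 scale, and 37 of them fell at least 8-fold. The 24 genes that were higher had a median of 1.6, and 3 rose at least 8-fold. Both L126A-I130A libraries lay beyond both H3.3 KO libraries for each of the 104, as they did for 3199 (below) and 3412 (above) of the genes tested. At an unadjusted p under 0.05, 1357 genes were lower and 874 higher. The count of DE genes depended on single libraries. Without replicate 1 of L126A-I130A 2 genes were DE, *Hist1h3a* and *Hist1h3h*, both higher, and edgeR called 0 lower (830 were lower at an unadjusted p under 0.05). Without replicate 2 of the mutant 142 were, and without replicate 1 or 2 of H3.3 KO 20 or 9 were. All 104 kept their direction under every alternative setting in which they were tested (13 settings for 81 genes, 12 for 22 genes and 10 for 1 gene). These settings refit the same counts, whose libraries did not overlap between the lines, so a direction could hardly have changed. Of these genes, 2 pairs share every count (*Dmrtc1c* with *Dmrtc1c2*, and *Gm15085* with *Ott*), so the 104 hold 102 distinct rows.

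**Figure D2:**
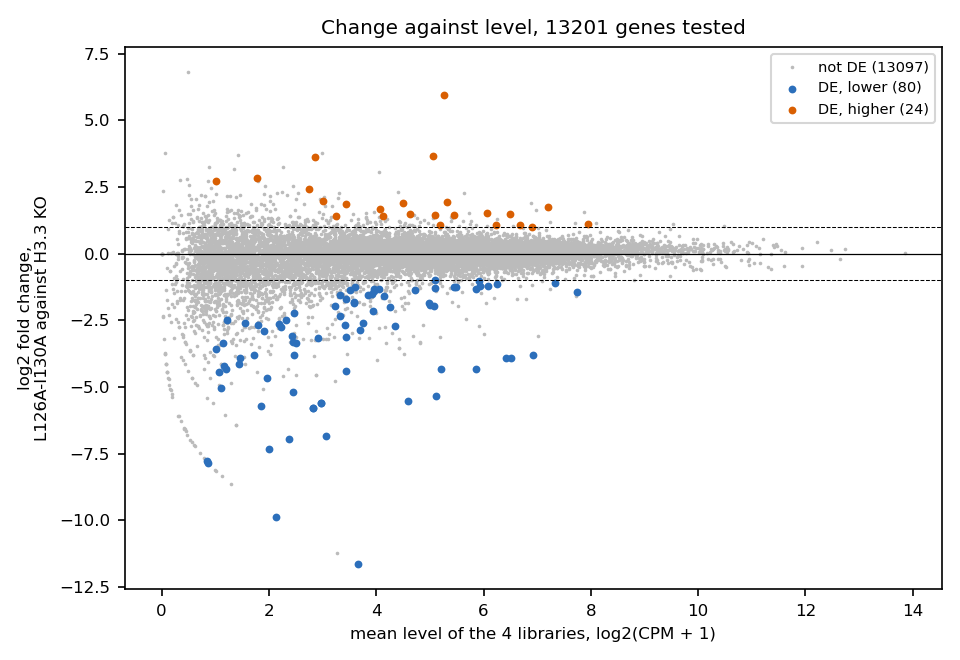
Log2 fold change of L126A-I130A H3.3 against H3.3 KO (y axis) against the mean level of the 4 libraries as log2(CPM + 1) (x axis), with 1 point per gene tested and dashed lines at a 2-fold change. The 80 lower and 24 higher DE genes are coloured, and fitted changes of genes with 0 counts in a line, which trail down at the lower left, depend on the prior count.

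The largest rises were those of *Hist1h3a*, *Hist1h3h* and *Hist1h3b*, which encode replication-dependent H3. Their transcripts normally end in a stem-loop instead of a poly(A) tail. *Hist1h3a* had 16 and 24 counts in H3.3 KO, 1141 and 1299 with L126A-I130A H3.3 and 1322 and 1554 with WT H3.3. The log2 fold change with the mutant was 5.95 (standard error 0.28, adjusted p = 6.21e-05 from edgeR). *Hist1h3h* rose from 85 and 75 to 895 and 1079 counts (log2 fold change 3.65, standard error 0.28, adjusted p = 0.00251). *Hist1h3b* rose from 13 and 18 to 209 and 163 counts (log2 fold change 3.63, standard error 0.42, adjusted p = 0.0155). The mutant differed from the WT line by -0.24, -0.03 and -1.02 on the log2 scale in *Hist1h3a*, *Hist1h3h* and *Hist1h3b*, and none of these differences passed the test (adjusted p = 0.754, 0.983 and 0.277). In the 4 *Daxx* libraries *Hist1h3a* lay between 0.281 and 2.11 CPM.

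Of the 7 replication-dependent H3 genes tested, these 3 were DE (42.9%, against 0.788% over all genes tested). *Hist1h3i* (4 and 27 counts in H3.3 KO, 208 and 214 with the mutant) and *Hist1h3d* (20 and 24, 81 and 179) were also above both KO libraries and did not pass, with adjusted p of 0.0706 and 0.0543. *Hist1h3c*, at 72 and 107 counts in KO and 43 and 22 with the mutant, lay below them. The 25 other clustered histone genes, of H1, H2A, H2B and H4, had a median log2 fold change of -0.82 (-1.47 without replicate 1 of the mutant and -0.36 without replicate 2), and none was DE by edgeR, DESeq2 or limma (1 was higher and 4 lower at an unadjusted p under 0.05). *Hist1h3* genes are near-identical copies among which reads can be split, and their reads and those of an H3.3 transgene cannot be told apart in these counts.

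**Figure D3:**
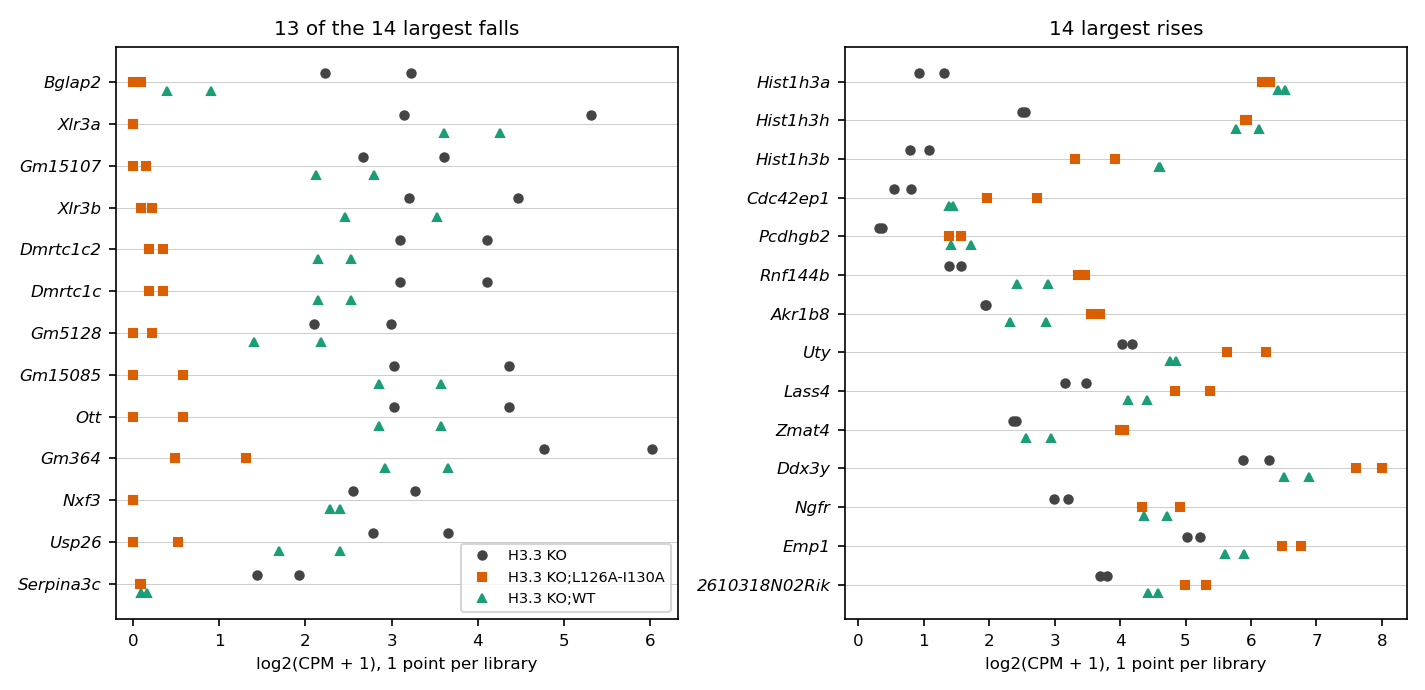
Level of 13 of the 14 largest falls (left) and the 14 largest rises (right) in each library of H3.3 KO, L126A-I130A and WT H3.3 lines, as log2(CPM + 1). For every gene shown both L126A-I130A points lie on 1 side of both KO points, while WT H3.3 lies near the mutant for the *Hist1h3* genes and *Serpina3c* and near the KO for *Xlr3a*, *Gm15107* and *Nxf3*.

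The X chromosome held more of the lower genes than any other chromosome. Of its 499 tested genes 21 were DE, all lower (4.21%), against 0.793% in either direction over all genes with a known chromosome. The median log2 fold change of the chromosome was -0.021, and 18 of the 21 remained DE with chromosome medians as offsets.

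The *Xlr* genes are a multicopy X-linked family related to a synaptonemal complex protein. *Xlr3a* had 139 and 625 counts in H3.3 KO, 0 and 0 with L126A-I130A H3.3 and 176 and 313 with WT H3.3. It was at least 127-fold lower with the mutant than in KO, taking 3 counts per library as the limit (adjusted p = 0.0305). *Xlr3b* fell from 145 and 340 to 1 and 3 counts (log2 fold change -6.84, standard error 0.83, adjusted p = 0.0157), and *Xlr4b* from 19 and 36 to 0 and 0 (at least 9.04-fold lower, adjusted p = 0.0431). The KO libraries themselves differed more than 2-fold in these genes, and the mutant libraries lay far below both. Of 10 *Xlr* genes tested 3 were DE, all lower, and 7 lay below both KO libraries (3199 of 13201 over all genes). *Xlr3c*, in contrast, had 88 and 49 counts with the mutant against 88 and 176. The median log2 fold change of the family was -7.01 as fitted and -3.01 with genes at 0 placed at their limit, against 0.03 over all genes tested. Reads of family members can be exchanged, and the single values are uncertain.

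The other large X-linked falls were of genes with few assigned roles. *Nxf3*, of the nuclear RNA export factor family, had 86 and 140 counts in KO, 0 and 0 with the mutant and 61 and 74 with WT H3.3 (at least 37.0-fold lower in the mutant than in KO, adjusted p = 0.00828). *Gm15107* had 95 and 181 counts in KO and 0 and 2 in the mutant, 135-fold lower with a 95% counting interval from 37.1 to 1120 (adjusted p = 0.0157). *Gm5128* had 58 and 112 in KO and 0 and 3 in the mutant, 55.6-fold lower with an interval from 18.7 to 272 (adjusted p = 0.0347). *Gm364* fell from 465 and 1032 to 6 and 27 counts and the row shared by *Dmrtc1c* and *Dmrtc1c2* from 134 and 261 to 2 and 5 (log2 fold changes -5.52 and -5.78). The row shared by *Ott*, a multicopy gene of ovary and testis, and *Gm15085* fell from 7.14 and 19.6 to 0 and 0.493 CPM (log2 fold change -5.62, adjusted p = 0.0347). In all of these genes the change fitted for WT H3.3 was smaller than that for the mutant.

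Some of these genes lie side by side when only tested genes are ordered, and untested genes may lie between them. In the annotation's order, *Phka1*, *Dmrtc1c* and *Dmrtc1c2* follow each other, as do *Xlr3b* and *Xlr4b*. *Dmrtc1c* and *Dmrtc1c2* share every count and are not separate signals. Off the X chromosome, *Serpina3k* with *Serpina3m*, *Slc38a4* with *Amigo2*, and *Uty* with *Ddx3y* were neighbours that changed in the same direction. The *Rhox* cluster of X-linked reproductive homeobox genes had 1 DE member of 15 tested, *Rhox1*, which fell from 49 and 134 to 3 and 4 counts (log2 fold change -4.67, standard error 0.71, adjusted p = 0.0325). Of the others, 10 had 0 counts in both libraries of a line, and the cluster's median moved from -4.60 to -0.61 with these at their limit.

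Y-linked genes, 7 of which were tested, split in direction. *Ddx3y*, an RNA helicase, rose from 1021 and 1231 counts to 3778 and 3546 (log2 fold change 1.74, standard error 0.22, adjusted p = 0.0186). *Uty*, a homologue of the X-linked H3K27 demethylase gene, rose from 270 and 275 to 1103 and 891 (1.93, 0.26, adjusted p = 0.0186). *Ube1y1*, a ubiquitin-activating enzyme gene, fell from 943 and 821 to 194 and 253 (log2 fold change -1.95, adjusted p = 0.0347). *Zfy1* had 128 and 135 counts in KO and 2 and 11 with the mutant without passing (adjusted p = 0.0710), and *Eif2s3y* had 715 and 520 against 1193 and 1144 (adjusted p = 0.107). *Kdm5d* and *Zfy2* lay below both KO libraries without passing. Reads of these genes and their X-linked homologues may be exchanged.

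Germ cell genes were the second group of falls. Over the lists of meiotic, piRNA, germ cell and oocyte genes, 107 genes were tested, 12 fell and edgeR called 0 higher. Of the 107, 68 lay below both KO libraries and 7 above, and the median log2 fold change was -0.99. Over all 13201 genes tested, 0.606% were called lower, 3199 lay below and 3412 above both KO libraries, and the median was 0.03. At an unadjusted p under 0.05, 2, 1, 0 and 1 genes of these lists were higher and 10, 10, 25 and 3 lower, and neither DESeq2 nor limma called a gene higher. The germ cell list, which holds regulators and other germline-expressed genes, had 7 of the 12. Its 48 tested genes had a median of -1.70 (-1.60 with genes at 0 at their limit, -1.15 without replicate 1 of the mutant and -2.43 without replicate 2). In them DESeq2 called 21 and limma 9. *Dazl*, which encodes an RNA-binding protein of germ cells, had 1681 and 3946 counts in H3.3 KO, 89 and 297 with L126A-I130A H3.3 and 582 and 1338 with WT H3.3. Its log2 fold change was -3.92 (standard error 0.61, adjusted p = 0.0325), and both mutant libraries were below both of each other line. *Scml2*, a germline Polycomb protein gene on the X chromosome, fell from 628 and 1636 to 37 and 79 counts (log2 fold change -4.31, standard error 0.55, adjusted p = 0.0175). *Usp26*, a testis deubiquitinase gene also on X, fell from 104 and 187 to 0 and 8 (log2 fold change -5.17, adjusted p = 0.0325).

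*Brdt*, the testis member of the BET bromodomain family, fell from 275 and 288 to 19 and 71 counts (log2 fold change -2.68, adjusted p = 0.0482). *Slc25a31*, the ADP/ATP carrier of germ cells, fell from 101 and 107 to 10 and 23 (-2.65, adjusted p = 0.0229). *Tktl1*, a transketolase-like gene, fell from 37 and 38 to 2 and 5 (-3.37), and *Tex21* from 116 and 111 to 14 and 26 (-2.49). Members that did not pass included *Stra8*, which starts meiosis, at 260 and 282 counts in KO and 0 and 20 with the mutant (adjusted p = 0.0552).

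Among 24 genes of meiotic cohesin, recombination and the synaptonemal complex, *Smc1b* and *Hormad1* were lower. *Smc1b*, a meiotic cohesin subunit, fell from 279 and 425 to 24 and 75 counts (log2 fold change -2.86, standard error 0.54, adjusted p = 0.0492). *Hormad1*, an axis protein of meiotic chromosomes, fell from 90 and 161 to 20 and 33 (-2.24, 0.41, adjusted p = 0.0456). Of 23 piRNA pathway and germ granule genes, *Asz1* (20 and 33 counts in KO, 0 and 0 in the mutant, at least 8.68-fold lower, adjusted p = 0.0385) and *Stk31* (379 and 373, 135 and 163, log2 fold change -1.31, adjusted p = 0.0212) fell. *Nlrp4c*, 1 of 14 oocyte and maternal-effect genes tested, fell from 65 and 48 to 7 and 11 (-2.61, adjusted p = 0.0363). In 39 of the 48 genes of the germ cell list replicate 1 of the mutant was below replicate 2. In replicate 2 alone, 36 of the 48 lay below both KO libraries. These 2 counts were not taken over all genes tested. They were 14 and 9 for 29 naive and core pluripotency genes, and 21 and 26 for 50 imprinted genes.

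The promoters of 4 of these 12 genes hold an E-box (CACGTG, the site of MAX dimers, which silence germ cell genes in mESCs) or an E2F site (TTCCCGCC or its complement GGCGGGAA), read on both strands in RefSeq windows of GRCm38.p6. They are shown for the 250 bases before the first annotated start, with matches in capitals.
Hormad1 (chr3:95559427-95559676, plus strand): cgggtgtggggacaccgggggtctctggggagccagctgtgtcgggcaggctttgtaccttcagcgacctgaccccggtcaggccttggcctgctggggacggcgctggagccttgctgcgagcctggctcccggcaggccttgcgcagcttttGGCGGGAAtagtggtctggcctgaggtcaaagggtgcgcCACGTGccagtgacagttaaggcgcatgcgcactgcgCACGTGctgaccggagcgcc
Slc25a31 (chr3:40708621-40708870, plus strand): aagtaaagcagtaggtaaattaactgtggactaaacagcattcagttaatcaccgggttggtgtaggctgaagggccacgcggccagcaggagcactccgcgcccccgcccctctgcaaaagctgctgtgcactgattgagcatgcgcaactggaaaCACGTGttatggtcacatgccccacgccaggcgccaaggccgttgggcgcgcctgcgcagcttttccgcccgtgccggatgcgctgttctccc
Brdt (chr5:107330944-107331193, plus strand): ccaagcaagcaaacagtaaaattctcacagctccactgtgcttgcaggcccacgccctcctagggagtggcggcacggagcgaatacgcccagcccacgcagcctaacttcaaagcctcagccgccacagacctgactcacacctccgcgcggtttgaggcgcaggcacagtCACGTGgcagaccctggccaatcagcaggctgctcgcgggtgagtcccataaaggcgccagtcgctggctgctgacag
Stk31 (chr6:49395289-49395538, plus strand): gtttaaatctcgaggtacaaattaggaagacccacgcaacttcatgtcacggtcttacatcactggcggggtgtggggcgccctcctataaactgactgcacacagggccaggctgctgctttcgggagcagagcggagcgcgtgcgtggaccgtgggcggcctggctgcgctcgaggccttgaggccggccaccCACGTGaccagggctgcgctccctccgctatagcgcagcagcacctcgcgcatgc
*Hormad1* has E-boxes that begin 57 and 20 bases before the start and an E2F site 96 bases before it. The E-box begins 93 bases before the start in *Slc25a31*, which has an E2F site 20 bases after it, 78 bases before in *Brdt* and 55 bases before in *Stk31*. Windows were matched for 64 of the 80 lower genes, of which 8 (12.5%) hold an E-box, as do 1257 of the 10559 matched genes tested (11.9%). An E2F site was found for 4 of the 64 (6.25%) and for 4.83% of all. Of 20 matched genes that were higher, 1 (5.0%) holds each motif. The shares of the lower genes were close to those of all genes tested.

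Two-cell-state genes, which mark the rare mESCs that resemble the two-cell embryo, were low in both mutant libraries with a wide gap between them. The defining *Zscan4* genes gave 529 and 584 counts of *Zscan4c* in KO, 16 and 132 with L126A-I130A H3.3 and 463 and 767 with WT H3.3. *Zscan4d* had 330 and 383, 4 and 79, and 245 and 304 counts. *Zscan4f* had 948 and 1195, 4 and 256, and 792 and 1261. The mutant libraries lay below all 4 others in these genes, and none passed the test (adjusted p = 0.206, 0.213 and 0.257). The same held for *Dux*, which switches on this state, with 52 and 80 counts in KO and 0 and 13 with the mutant (adjusted p = 0.199).

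Of 33 two-cell-state genes tested 29 lay below both KO libraries (3199 of 13201 over all genes) and the median log2 fold change was -2.97. At an unadjusted p under 0.05, 24 were lower, DESeq2 called 11 and limma 9, and edgeR called 1. This was *Dub1*, a deubiquitinase gene of a multicopy family, at 345 and 374 counts in KO, 30 and 92 with the mutant and 325 and 542 with WT H3.3 (log2 fold change -2.58, standard error 0.44, adjusted p = 0.0363). All 33 were lower in replicate 1 of the mutant than in replicate 2, and 29 lay below both KO libraries in replicate 2 as well. Such counts of single libraries were not taken over all genes tested. The median was -2.19 without replicate 1 of the mutant and -6.04 without replicate 2. In bulk RNA, fewer cells in this state and less RNA per cell cannot be told apart.

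**Figure D4:**
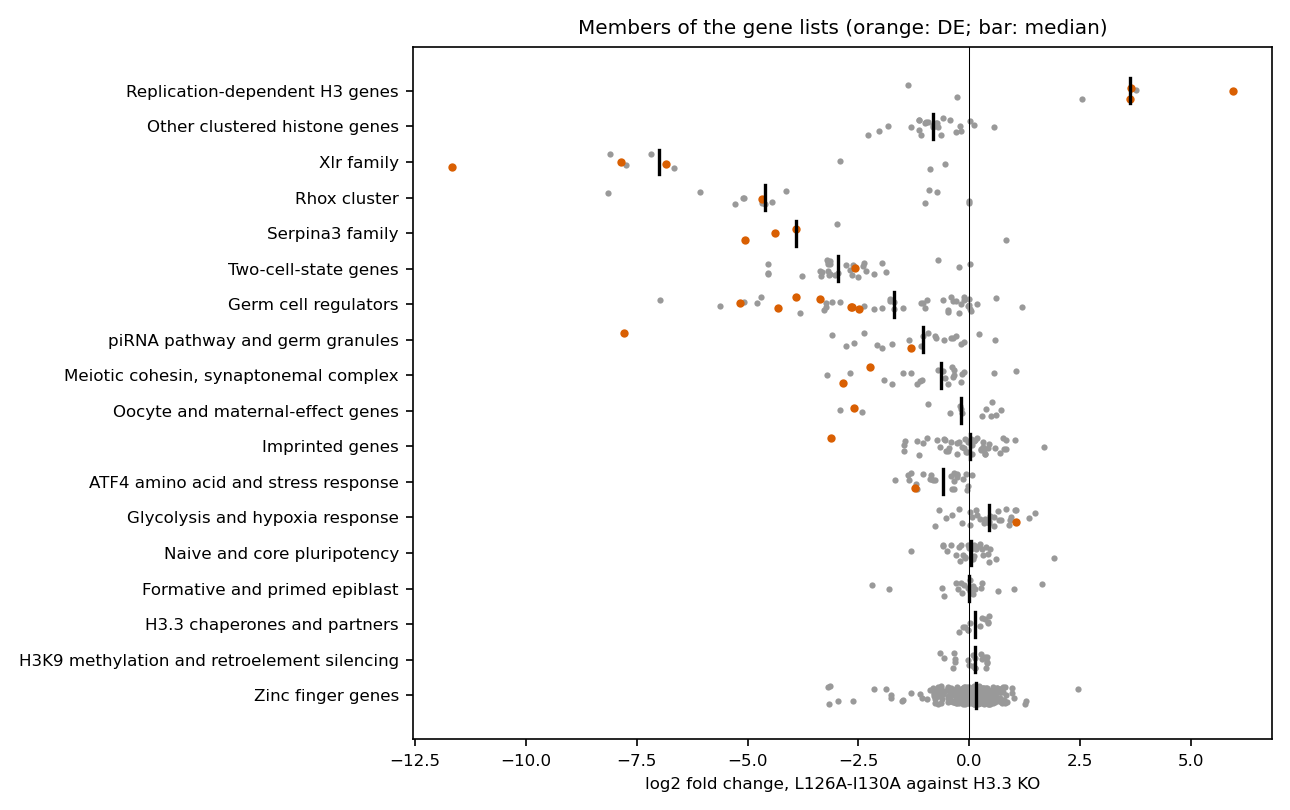
Log2 fold change of L126A-I130A H3.3 against H3.3 KO for each tested member of 18 gene lists, with DE members in orange and a bar at the list's median. Two-cell-state genes cluster near -2.97 with 1 DE member, *Xlr* and *Rhox* genes reach far to the left where the mutant has 0 counts and the fitted value depends on the prior count, and pluripotency, chaperone and zinc finger genes lie around 0.

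Of the *Serpina3* genes, which encode serine protease inhibitors, 3 fell with the mutant and were low with WT H3.3 as well. *Serpina3m* had 2981 and 2385 counts in H3.3 KO, 121 and 237 with L126A-I130A H3.3 and 223 and 315 with WT H3.3. Its log2 fold change with the mutant was -3.90 (standard error 0.35, adjusted p = 0.00534), and the direct difference from WT H3.3 was -0.61 (adjusted p = 0.505). *Serpina3k* fell from 345 and 291 to 10 and 20 counts (log2 fold change -4.39, adjusted p = 0.0186), and *Serpina3c* from 30 and 45 to 1 and 1, 36.8-fold lower with a 95% counting interval from 9.83 to 309 (adjusted p = 0.0347). Of 5 family members tested, *Serpina3n* (56 and 44, 6 and 6) did not pass (adjusted p = 0.0753), and *Serpina3i* lay above both KO libraries at 42 and 17 counts in KO and 42 and 61 with the mutant. *Bglap2*, an osteocalcin gene, had 65 and 134 counts in KO and 1 and 0 in the mutant, 195-fold lower with an interval from 34.6 to 7750 (adjusted p = 0.0341). These are families with shared sequence, so reads may be split among members.

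Of the 50 tested genes on the imprinted list 1 was DE (2.0%, against 0.788% over all genes tested) and the median log2 fold change was 0.01. The list need not hold every imprinted gene, and DE genes outside it were not checked for imprinting. *Grb10*, an imprinted adaptor that restrains insulin signalling, had 207 and 375 counts in H3.3 KO, 27 and 40 with L126A-I130A H3.3 and 775 and 1049 with WT H3.3. It fell with the mutant (log2 fold change -3.11, standard error 0.33, adjusted p = 0.00948), and its value with WT H3.3 was 1.66 (standard error 0.29, adjusted p = 0.0729). The difference between the transgenes was -4.77 (adjusted p = 0.00269), and the 3 lines did not overlap. *Grb10* is on chromosome 11 and remained DE with chromosome medians as offsets. *Peg12*, another imprinted gene, had 48 and 45 counts in KO, 24 and 15 with the mutant and 142 and 166 with WT H3.3, and was lower with the mutant than with WT H3.3 (-2.94, adjusted p = 0.0317). Its value against KO was -1.19 (adjusted p = 0.198).

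No rise outside the histone genes reached 8-fold. *Cdc42ep1*, an effector of the GTPase CDC42, had 8 and 12 counts in H3.3 KO and 84 and 53 with the mutant (log2 fold change 2.82, adjusted p = 0.0430). *Pcdhgb2*, a protocadherin gene, rose from 5 and 4 to 24 and 36 (2.72, adjusted p = 0.0463), and *Rnf144b*, which encodes a ubiquitin ligase, from 35 and 26 to 148 and 168 (2.41, adjusted p = 0.0203). *Akr1b8*, an aldo-keto reductase gene, rose from 50 and 46 to 177 and 196 counts. *Lass4*, a ceramide synthase gene, rose from 180 and 128 to 599 and 506, and *Zmat4*, a zinc finger gene, from 76 and 67 to 233 and 274, with log2 fold changes between 1.86 and 1.99 for the 3. *Emp1*, a membrane protein gene, rose from 558 and 584 to 1592 and 1604 (1.52, adjusted p = 0.0157), *Ngfr*, the low-affinity neurotrophin receptor gene, from 122 and 132 to 433 and 351 (1.68) and *2610318N02Rik* from 211 and 209 to 575 and 562 (1.48). In each of these 9 genes both WT H3.3 libraries also lay above both KO libraries.

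Pluripotency genes were expressed at high levels in all 4 libraries. *Pou5f1* was measured at 939 and 1017 CPM in H3.3 KO and 1285 and 1136 CPM with the mutant, *Nanog* at 797 and 968 and 584 and 671 CPM, and *Esrrb* at 773 and 831 and 889 and 826 CPM. The 29 tested genes of naive and core pluripotency had a median log2 fold change of 0.04 and summed to between 10500 and 11800 CPM in KO and between 10400 and 10700 CPM in the mutant. None was DE by edgeR or limma, 1 was higher and 3 lower at an unadjusted p under 0.05, and DESeq2 called 1. Of the 20 tested genes of formative and primed epiblast (median -0.01) edgeR and limma called none, with 2 higher and 2 lower unadjusted and 3 by DESeq2, and *Dnmt3b*, a de novo DNA methyltransferase gene, stood at 62.4 and 58.9 CPM in KO and 279 and 98.7 CPM in the mutant.

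Several defining markers of other cell types were near 0, and none was at 0 in all 4 libraries. Of the trophectoderm markers, *Cdx2* and *Elf5* were below 1 CPM in all 4 libraries, and so were the fibroblast markers *Col1a2* and *Postn* and the neural marker *Pax6*. *Krt7*, of trophectoderm, lay at 3.29 and 2.92 CPM in KO and at 0.809 and 8.65 CPM in the mutant. The fibroblast markers *Col1a1* and *Thy1* lay between 1.01 and 3.17 CPM and between 3.24 and 7.66 CPM. The neural markers *Sox1* and *Tubb3* lay between 2.44 and 9.47 CPM and between 33.4 and 71.4 CPM. *Sox17* and *Gata6*, of primitive endoderm, lay at 1.25 to 2.98 CPM and 1.08 to 2.55 CPM in KO and at 0.674 to 1.04 CPM and 0.876 to 0.877 CPM in the mutant, and *Gata4* at 3.17 to 4.97 CPM in KO and 4.11 to 5.64 CPM in the mutant. The summed level of fibroblast genes was 1860 to 1930 CPM in KO and 2520 to 2910 CPM in the mutant, most of it from *Fn1* (1684 and 1655 CPM in KO, 1920.5 and 2611 CPM in the mutant), which mESCs express. That of primitive endoderm genes was 798 to 992 and 923 to 1120 CPM, most of it from *Lamc1* and *Sparc*. The median log2 fold change of the 18 tested genes was -0.96 (-0.30 without replicate 2 of H3.3 KO). Of these genes 8 lay below and 2 above both KO libraries (3199 and 3412 of 13201 over all genes). The summed level of neural genes was 521 to 622 and 618 to 802 CPM and that of trophectoderm genes 122 to 151 and 165 to 185 CPM. No gene of the fibroblast, neural or trophectoderm lists was DE by edgeR or limma. At an unadjusted p under 0.05 these 3 lists had 6 higher and 0 lower genes, and DESeq2 called 2 higher, and their part in the other results was not tested. *Vim*, an intermediate filament gene of the fibroblast list, had 141 and 97.9 CPM in KO and 506 and 193 CPM in the mutant.

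No gene of the H3.3 deposition machinery was DE in RNA, which does not give protein levels. The study reported severely reduced DAXX protein in H3.3 KO mESCs, which WT and L126A-I130A H3.3 stabilised. It found no significant change in *Daxx* mRNA. *Daxx* lay at 61.9 and 61.5 CPM in KO and at 101 and 67.5 CPM with the mutant (log2 fold change 0.45, standard error 0.18, adjusted p = 0.259). *Atrx* was measured at 323 and 379 and at 332 and 356 CPM (-0.03, adjusted p = 0.959), and *Hira*, which is on chromosome 16, at 145 and 129 and at 144 and 122 CPM (-0.04, adjusted p = 0.964). The *Atrx* and *Hira* libraries overlapped between the lines. Across 12 H3.3 chaperones and partners, 21 genes of H3K9 methylation and retroelement silencing, 17 of DNA methylation and demethylation and 34 Polycomb subunits the medians lay between 0.03 and 0.14. No member of these lists was DE by edgeR or limma. At an unadjusted p under 0.05, 8 were higher and 6 lower, and DESeq2 called 1 higher and 1 lower. The 410 zinc finger genes had a median of 0.14 with 161 above and 59 below both KO libraries (3412 and 3199 of 13201 over all genes). None was DE by edgeR, though 29 were higher and 17 lower at an unadjusted p under 0.05, DESeq2 called 3 lower and limma 1.

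Of 2 metabolic lists, each had 1 DE gene (3.12% and 3.85% called, against 0.788% over all genes tested). Of 32 genes of glycolysis and the hypoxia response, 17 lay above both KO libraries (3412 of 13201 over all genes). Their median was 0.45 (0.69 without replicate 1 of H3.3 KO and 0.23 without replicate 2). *Pdk1*, a kinase that blocks pyruvate oxidation, was the 1 DE member, at 931 and 698 counts in KO, 1737 and 1536 with the mutant and 1155 and 1072 with WT H3.3 (log2 fold change 1.06, adjusted p = 0.0468). *Ldha*, lactate dehydrogenase, had 12318 and 4588 counts in KO and 16489 and 13664 in the mutant (adjusted p = 0.249), and the KO libraries were themselves more than 2-fold apart in it. Of 26 ATF4 amino acid and stress response genes, 16 lay below both KO libraries (3199 of 13201 over all genes), none above, and the median was -0.60. *Trib3*, a pseudokinase gene that ATF4 induces, fell from 1820 and 1340 to 471 and 885 counts (log2 fold change -1.21, adjusted p = 0.0421), and 24 of the 26 were lower in replicate 1 of the mutant than in replicate 2. That last count was not taken over all genes tested. The median of the ATF4 genes was -0.40 without replicate 1 and -1.30 without replicate 2. The 81 cytosolic ribosomal protein genes (median 0.14) and 87 respiratory chain genes (0.08) held no DE member by edgeR or limma. Unadjusted, 9 ribosomal genes were higher and 9 lower, and 8 respiratory chain genes were higher and 4 lower. DESeq2 called 1 respiratory chain gene lower. Of the ribosomal genes 54 lay above and 11 below both KO libraries (3412 and 3199 of 13201 over all genes). For the respiratory chain genes these counts were 27 and 13.

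Genes of the cell surface, matrix and cytoskeleton made up most other calls from the lists. Of 66 matrix genes, 3 rose and 2 fell (7.58% called, against 0.788% over all genes tested). *Col18a1*, a basement membrane collagen, rose from 896 and 701 to 2238 and 2030 counts (log2 fold change 1.47, adjusted p = 0.0381), *Vcan*, a proteoglycan, from 449 and 329 to 703 and 881 (1.06) and *Ltbp4*, which holds latent TGF-beta, from 1325 and 1312 to 2355 and 2860 (1.01). *Col4a1*, also of basement membrane and counted with primitive endoderm, fell from 202 and 297 to 59 and 95 counts (-1.70, adjusted p = 0.0454), while WT H3.3 gave 268 and 391. *Smoc1*, a secreted BMP antagonist, fell from 828 and 825 to 199 and 229 counts (-1.92, adjusted p = 0.0192).

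The GTPase-activating proteins *Arhgap27*, *Arhgap30* and *Arhgap44* fell (log2 fold changes -1.85, -3.07 and -1.84), as did the atypical GTPase *Rhobtb1* (-3.34). *Arhgap27* and *Arhgap44* are on chromosome 11 and did not pass with its median as an offset (adjusted p = 0.0904 and 0.0721). The same was true of *Myh10*, a nonmuscle myosin heavy chain, at 3652 and 3673 counts in KO and 1353 and 2072 in the mutant (log2 fold change -1.09, and -0.66 with the offset). Among receptors of G protein signalling, *Fzd7*, a Wnt receptor, rose from 310 and 290 to 915 and 637 counts (1.44, adjusted p = 0.0392) and *Adora2b*, an adenosine receptor on chromosome 11, fell from 66 and 78 to 4 and 6 (-3.80, adjusted p = 0.0157). Of 221 solute carriers 3 fell (1.36% called, against 0.788% over all genes tested). *Slc38a4*, an amino acid transporter, fell from 3555 and 3963 to 85 and 481 counts (-3.79, adjusted p = 0.0331), *Slc43a3* from 214 and 293 to 37 and 62 (-2.36) and *Slc25a31* is described above.

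The other 43 DE genes, 38 lower and 5 higher, were in none of the 42 lists and not among the largest changes, with log2 fold changes down to -4.43 and up to 1.45. In 22 of the 42 lists no gene was DE, among them 33 interferon-stimulated genes (median -0.08, 4 higher and 1 lower at an unadjusted p under 0.05, 2 higher and 1 lower by DESeq2, none by limma) and 28 *Cdkn* and p53 target genes (median 0.05, 2 higher and 1 lower unadjusted, none by DESeq2 or limma).

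WT H3.3 was compared with H3.3 KO in the same fit, in which 33 genes were DE (0.25%), 5 higher (0.0379%) and 28 lower (0.212%). Since both comparisons use the same KO libraries, their values are given side by side for the genes named here and no overlap was read from them. The values lay close for *Hist1h3a* (5.95 with the mutant and 6.18 with WT H3.3), *Serpina3m* (-3.90 and -3.29), *Myh10* (-1.09 and -1.07) and *Vcan* (1.06 and 1.20). They lay apart for *Xlr3b* (-6.84 and -0.95), *Slc38a4* (-3.79 and -0.39), *Dub1* (-2.58 and 0.29), *Stk31* (-1.31 and 0.09) and *Col4a1* (-1.70 and 0.41).

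**Figure D5:**
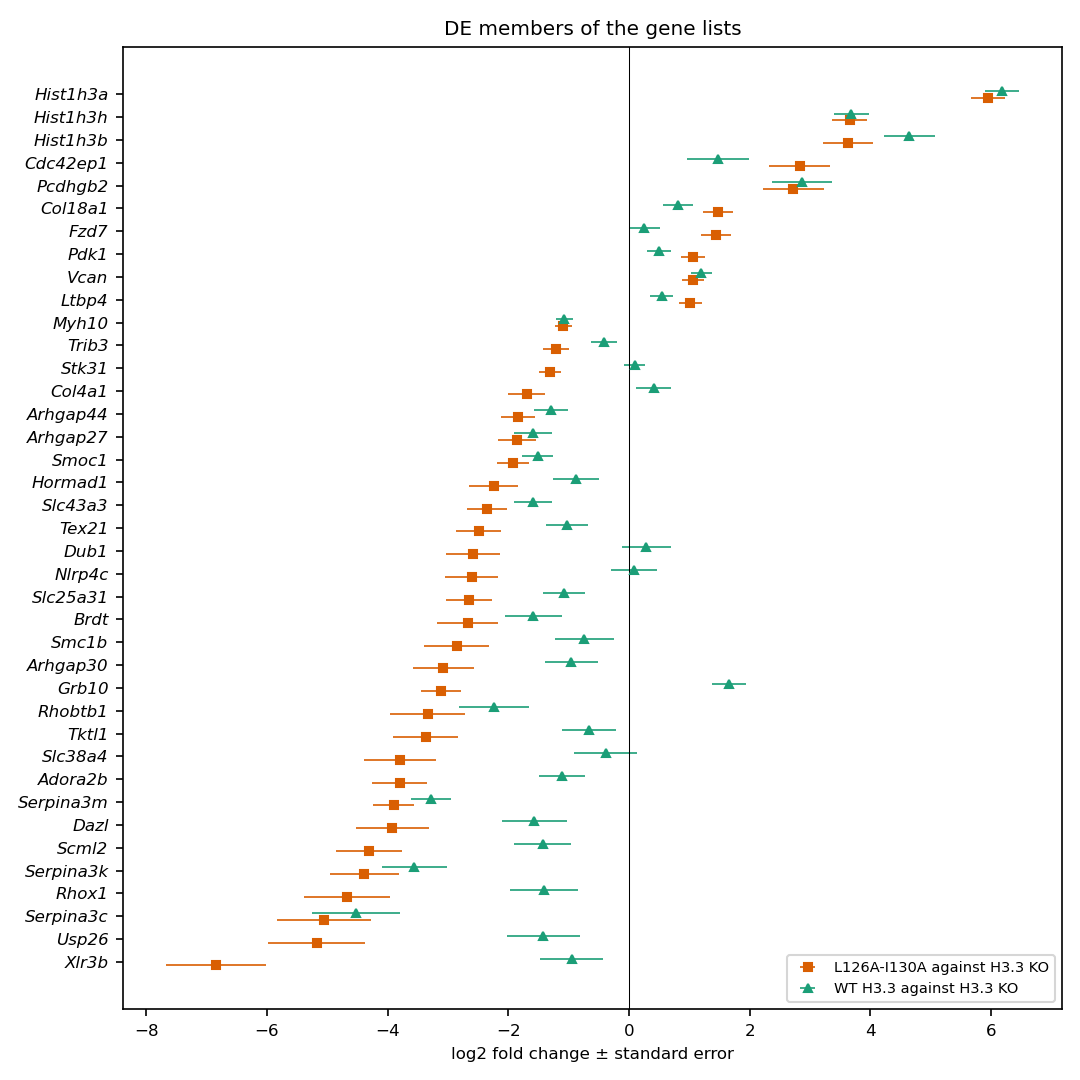
Log2 fold change with its standard error for L126A-I130A H3.3 and for WT H3.3, each against the same H3.3 KO libraries, for the 39 DE list members of the mutant comparison that had a count in a mutant library. Both points lie close for *Hist1h3a*, *Serpina3m* and *Myh10* and on opposite sides of 0 for *Grb10*, *Col4a1*, *Dub1* and *Stk31*.

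The direct test of L126A-I130A against WT H3.3 called 68 genes (0.515%), 33 higher (0.25%) and 35 lower (0.265%) with the mutant. Among the genes named above, the mutant was lower than WT H3.3 in *Nxf3* (adjusted p = 0.0153), *Stk31* (-1.40, adjusted p = 0.0234), the *Dmrtc1c* row (-4.24, adjusted p = 0.0234), *Gm15107* (adjusted p = 0.0288), *Xlr3b* (-5.89, adjusted p = 0.0317) and *Xlr3a* (adjusted p = 0.0426). It was also lower in *Col4a1* (-2.11, adjusted p = 0.0333), *Dub1* (-2.87, adjusted p = 0.0392), *Nlrp4c* (-2.69, adjusted p = 0.0441), *Adora2b* (-2.69, adjusted p = 0.0477), *Slc38a4* (-3.40, adjusted p = 0.0486) and the Y-linked *Ube1y1* (-2.05, adjusted p = 0.0426), besides *Grb10* and *Peg12*. *Dazl* (-2.35, adjusted p = 0.126), *Scml2* (-2.88, adjusted p = 0.0629) and *Smc1b* (-2.12, adjusted p = 0.136) did not pass this test. In the two-cell-state list, where the 2 transgene lines had a median difference of -2.90, *Dub1* was the 1 gene called of 33. Without replicate 1 of the mutant edgeR called 0 genes in this comparison (902 at an unadjusted p under 0.05), and 1 or 2 without either WT H3.3 library. The genes that were higher included *Epcam*, an epithelial adhesion molecule, and *Hmga2*, a chromatin architectural protein, which were chosen for naming after their values were seen. *Epcam* had 2266 and 2036 counts in KO, 2216 and 2529 with the mutant and 486 and 611 with WT H3.3 (2.12 against WT H3.3, adjusted p = 0.0153). *Hmga2* was measured at 27.3 and 45.8 CPM in KO, 37.6 and 30.9 CPM with the mutant and 4.51 and 7.32 CPM with WT H3.3 (2.53, adjusted p = 0.0234). In both genes it was the WT H3.3 line that lay apart from the other lines.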

How the data were processed

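PolyA RNA of 5 mESC lines, 2 libraries each, was sequenced by the authors, who aligned reads with Bowtie and estimated expression with RSEM on mm9 (submitters' processing notes). Versions, annotation and strand setting are not given in the sources used here. The deposited table of 20325 genes holds expected counts, although its name gives another unit, and these were rounded to whole numbers. edgeR 4.0.16 (R 4.3.3) was fitted by quasi-likelihood to all 10 libraries with median-of-ratios factors, after removal of genes that did not reach 1 CPM in 2 libraries, which left 13201. Genes were called DE when the p-value, adjusted by Benjamini-Hochberg over all genes tested, was below 0.05 and the 2 lines differed by 2-fold or more. limma 3.58.1 and DESeq2 1.42.0 were alternatives. Genes named were the 14 largest falls and rises among DE genes, DE list members, *H3f3a*, *H3f3b*, *Daxx*, *Atrx*, *Hira* and the highest members of lists for other cell types, and any other gene named was chosen after its values were seen. The comparison, the gene lists and the tests were chosen with earlier results of these data known. Folds of genes at 0 counts used a limit of 3 counts per library. Intervals cover counting error only. Chromosomes, neighbours and promoter windows came from RefSeq (GRCm38.p6), another build than the table's. The fitting code was tested on simulated data. Results for 1 gene and 1 gene list are not reported here.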

Additional observations from a re-analysis of the deposited data

How the results depend on the processing

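All 104 DE genes of L126A-I130A against H3.3 KO kept their direction under every alternative that tested them (13 for 81 genes, 12 for 22 and 10 for 1), 76 were called in at least 8 of them, and 2, *Hist1h3a* and *Hist1h3h*, in all. The directions could hardly have changed, because both mutant libraries lay beyond both KO libraries in each of these genes. The number of calls did move. Against 104 DE genes (24 higher, 80 lower), 203 (41, 162) were called with no filter on low values, 444 (86, 358) by DESeq2, 173 (35, 138) by limma, 182 (40, 142) from the 6 H3.3 libraries, 29 (8, 21) from the 4 libraries compared and 301 (52, 249) at an adjusted p under 0.1. For WT H3.3 against H3.3 KO, 33 became 53, 213, 55, 61, 330 and 70 in the same order. For L126A-I130A against WT H3.3, 68 became 39 by library size alone, 125 with no filter, 38 at a mean of at least 5 CPM, 323 by DESeq2, 18 from the 4 libraries compared and 146 at an adjusted p under 0.1. Leaving out each library in turn gave between 2 and 142 calls for the mutant against KO (2 to 30 higher, 0 to 112 lower), between 2 and 3 for WT H3.3 against KO and 0 to 64 when both transgenes were compared. Deviations of same-numbered libraries correlated above 0.1 in 7 of 10 pairs of lines (-0.044 to 0.574, and 0.069 for H3.3 KO with the mutant). Same-numbered libraries of several lines thus shared deviations. No source ties the numbers to a shared batch, and the main fit did not pair the libraries. With a replicate block 461 genes (77 higher, 384 lower), 105 and 234 were called in the 3 comparisons. *Atrx* (-0.1398 to 0.0901 when a library was left out) turned positive without H3.3 KO replicate 2 (0.0901), without mutant replicate 1 (0.0231) and with chromosome medians as offsets (0.0217), and *Hira* (-0.1639 to 0.0811) without H3.3 KO replicate 1 (0.0446), without mutant replicate 2 (0.0811) and with the offsets (0.246), none near the threshold. The cause of these differences was not tested. At 2 libraries a line, genes with few counts, such as *Xlr4b* and *Asz1*, have wide errors, and a gene not called may still differ.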
